A study of Mus musculus with 22 samples.

Results

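Metastasis-like primary tumours of the mouse pancreas were compared with islet tumours, gene by gene. The 10 samples compared, of 22 in the series, were those labelled as metastasis-like primary (5) or islet tumour (5), and 19938 genes were measured in all of them. All 22 samples, the islets included, carried the RIP1-TAG2 genotype in their labels, a model of pancreatic neuroendocrine tumours (PanNET) whose transgene puts a viral oncoprotein under the insulin promoter and so in beta cells. The labels give no treatment, age or strain. The other samples were normal, hyperplastic and angiogenic islets (3 each) and liver metastases (3), and the series followed gene expression over these tumour stages. Each sample was measured on 1 Affymetrix Mouse Gene 1.0 ST array, and values are the authors' log2 levels, on which a difference of 1 is a doubling. Samples of each class are numbered 1 to 5. Number 1 had the title prefix I, numbers 2 and 3 prefix II, and numbers 4 and 5 prefix III, in both classes, and values are given in that order throughout.

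The labels and the design text do not state by which criterion a primary tumour was called metastasis-like, or what the prefixes stand for. If the class was assigned on expression, the differences below are not independent of it. Each title also holds a number after the prefix. These title numbers are close to each other for the tumour and the primary at the same place in the order given above. What the title numbers stand for is not stated, so it is not known whether such a tumour and primary came from the same animal. No fit paired the samples by them. The p-values therefore measure the spread between these samples, which may be technical. In bulk tissue, fewer cells of a type and less RNA per cell cannot be told apart.

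Beta cells make insulin, and a small set of transcription factors (Pdx1, Nkx6-1, Mafa, Neurod1) holds their glucose transport, insulin granules and glucose-stimulated secretion together. Mature beta cells also keep some widely used genes silent, among them lactate dehydrogenase A and the monocarboxylate carrier Slc16a1, so that lactate and pyruvate in the blood do not drive insulin release. Neuroendocrine tumours keep granule genes in common with neurons, and their vessels depend on Vegfa made by the tumour cells.

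Of the 19938 genes, 5279 (26.5%) differed between the classes at an adjusted p below 0.05 in limma's moderated test. Among them 2455 (12.3%) were higher in metastasis-like primaries and 2824 (14.2%) lower, and 745 differed by at least 1 log2 (431 higher, 314 lower). For 3390 genes (17%) no array of either class reached into the range of the other, and 3252 of these were called. The median difference over all genes was -0.02 log2, and 5097 of the called genes (96.6%) had the same sign in each of the prefixes I, II and III. The prefixes split the same 10 arrays that gave the calls, so this share follows largely from the calls and is no replication. In the 10 arrays the medians over probe sets ran from 7.14 to 7.22. Arrays correlated at 0.975 to 0.991 within primaries, 0.980 to 0.989 within tumours and 0.950 to 0.962 between the classes, across genes, which are not replicates. The count of calls lay between 4845 and 5183 when any of the 10 arrays was left out.

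Markers of other cell types were read first. Acinar cells, the digestive enzyme cells around islets, left a strong signal in both classes: their list averaged 11.48 to 12.09 in islet tumours and 10.19 in primary 4 against 12.02 to 12.56 in the other primaries, and limma called 0 of its 17 measured genes (0 also at an unadjusted p below 0.05). Cpa1, a pancreatic carboxypeptidase, stood at 12.81, 12.68, 12.91, 12.97 and 12.83 in tumours and at 12.96, 12.98, 13.12, 11.76 and 13.07 in primaries. The list of proteins that hepatocytes secrete averaged 6.65 to 6.80 in islet tumours, 7.06 to 7.36 in primaries and 9.88 to 10.26 in liver metastases. Of its 24 measured genes 6 were higher in primaries (25% called, against 26.5% over all genes). The list of hepatocyte enzymes averaged 5.53 to 5.73 in tumours and 5.57 to 5.63 in primaries, against 7.84 to 8.58 in metastases. Of its 20 measured genes 3 were higher and 1 lower (20% called). With the secreted list's mean as a covariate in a fit of the 10 arrays, 24 genes were called. That mean did not overlap between the classes, and the median SE over all genes was 0.277 against 0.0932 without a covariate. With the mean of the enzyme list, whose ranges overlapped, 4201 genes were called, against 4216 without a covariate and 4333 with the acinar mean. No gene was called by limma among 12 lymphocyte, 10 neutrophil and 6 glial markers, of which 0 had an unadjusted p below 0.05.

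**Figure D1:**
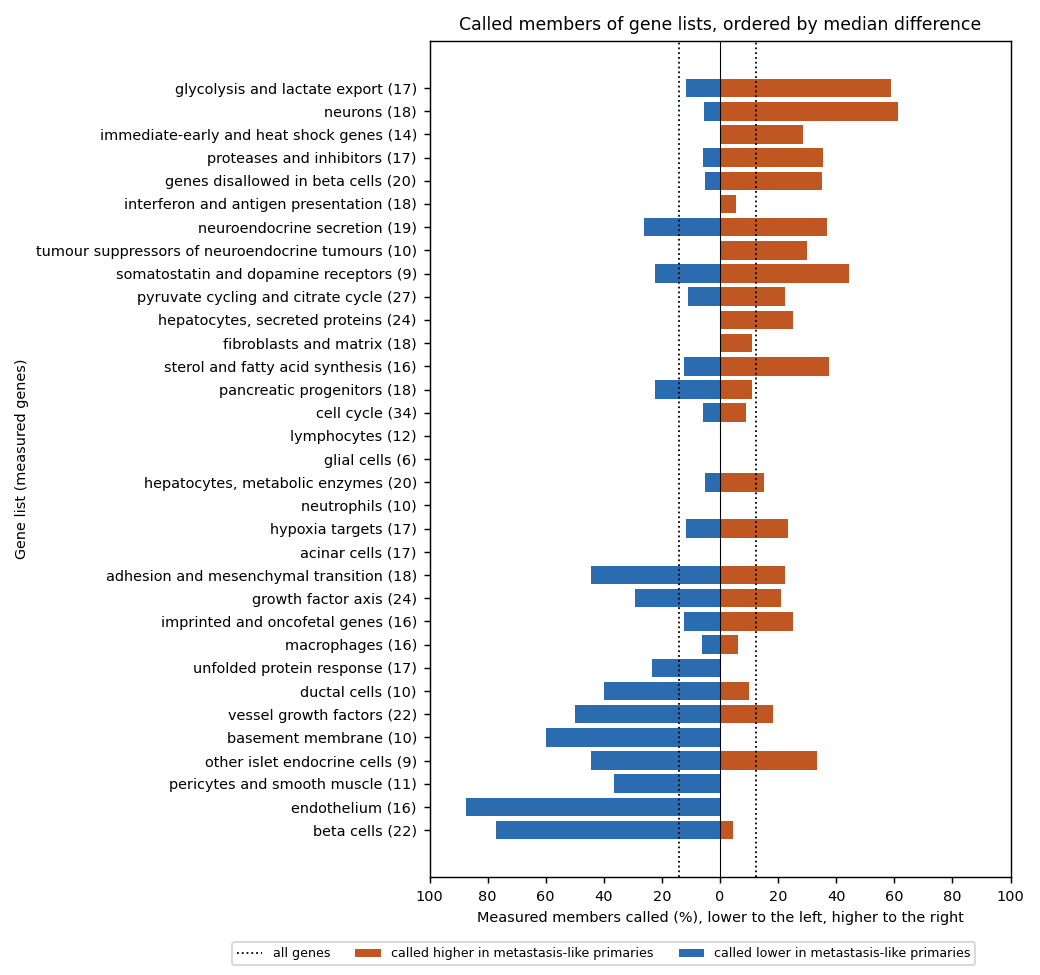
Share of the measured genes of each list that were called lower (left, blue) or higher (right, orange) in metastasis-like primaries than in islet tumours, in percent, with dotted lines at the shares over all genes (14.2% lower and 12.3% higher). Lists are ordered by their median difference, from beta cells (-1.05 log2) at the bottom to glycolysis and lactate export (0.53 log2) at the top.

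Genes of mature beta cells were lower in metastasis-like primaries. Of 22 measured beta-cell genes, 17 fell and 1 rose (Isl1), with a median difference of -1.05 log2, against -0.02 over all genes; without tumour 3, 2 rose, and in a fit of the 10 arrays alone 0 rose. Both insulin granule cargo and the machinery that senses glucose were among those that fell, while both subunits of the potassium channel that sets off insulin release were not called. The list averaged 10.35 to 10.81 in islet tumours and 8.96 to 9.42 in primaries.

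As an example from a gene that fell, the upstream window of Iapp, the gene of the granule hormone amylin, is shown. It is the 250 bases before the start site at chr6:142298175-142298424 (GRCm38.p6, plus strand, from RefSeq), with the letters CATCTG, a form of the E box bound by Neurod1 and its partners, in capitals.

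Iapp: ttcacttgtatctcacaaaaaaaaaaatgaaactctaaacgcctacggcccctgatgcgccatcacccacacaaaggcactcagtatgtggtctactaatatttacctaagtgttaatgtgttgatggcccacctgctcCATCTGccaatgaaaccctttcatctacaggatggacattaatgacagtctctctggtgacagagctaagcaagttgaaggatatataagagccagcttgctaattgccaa

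This window held CATCTG in 1 place, 111 bases before the start site. Searched on both strands (CATCTG or CAGATG), the motif lay in 14.4% of 32851 RefSeq windows of the same length, in 11.9% of those of measured genes, in 10.9% of those of genes called higher and in 10.2% of those of genes called lower. Among 18 windows of 16 beta-cell genes 5 held it. A match is a stretch of letters and not a measured site.

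Iapp itself stood at 13.29, 13.46, 13.53, 13.38 and 13.44 in islet tumours and at 11.93, 12.52, 12.75, 12.14 and 11.97 in primaries. All 5 primaries lay below every tumour, and the gene fell by 1.16 ± 0.13 log2 (SE; adjusted p = 5.04e-07). Ins2, an insulin gene, stood at 11.06, 11.05, 11.04, 10.98 and 10.93 in tumours and at 9.87, 10.29, 10.38, 10.28 and 10.01 in primaries, a fall of 0.84 ± 0.09 log2 (adjusted p = 1.41e-07) with no overlap. Ins1 was not analysed here. The zinc carrier of insulin granules, Slc30a8, fell by 0.76 ± 0.09 log2, from 12.59 to 12.69 in tumours to 11.58 to 12.20 in primaries.

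Pdx1, the factor that founds the pancreas and keeps insulin genes on, stood at 9.92, 9.86, 9.60, 10.13 and 9.81 in tumours and at 6.73, 7.10, 7.27, 7.38 and 7.05 in primaries. The gap between the classes was far wider than the spread within them, and Pdx1 fell 6.76-fold (-2.76 ± 0.13 log2, adjusted p = 3.05e-12). Nkx6-1, a factor that holds beta-cell identity, stood at 9.42, 9.17, 8.97, 9.68 and 9.30 in tumours and at 7.25, 7.37, 7.45, 8.50 and 7.56 in primaries, and fell by 1.68 ± 0.18 log2 (adjusted p = 2.26e-07). Primary 4 was the highest of its class and still below the lowest tumour. Mafa, a factor of mature beta cells, fell by 1.43 ± 0.16 log2 (adjusted p = 4.44e-07); all 5 primaries stood within 7.11 to 7.21, against 7.91 to 9.09 in tumours.

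Other factors of islet cells fell, rose or were not called. Neurod1 fell by 0.45 ± 0.08 log2 (adjusted p = 0.000153), and Pax6, shared by all islet endocrine cells, by 0.57 ± 0.12 log2 (adjusted p = 0.000793) with overlapping arrays. Nkx2-2 stood at 9.89 to 10.03 in tumours and at 9.67 to 10.08 in primaries, a difference of -0.08 ± 0.09 log2 (adjusted p = 0.596). Isl1, a factor of endocrine cells and of neurons, rose by 0.36 ± 0.10 log2 (adjusted p = 0.013), from 11.43, 11.01, 11.20, 11.26 and 11.002 in tumours to 11.75, 11.79, 11.56, 11.12 and 11.47 in primaries; primary 4 lay inside the range of the tumours, and in a fit of the 10 arrays alone Isl1 had an adjusted p of 0.0701. Insm1, a zinc finger factor of endocrine progenitors and neuroendocrine tumours, fell 3.31-fold (-1.73 ± 0.15 log2, adjusted p = 1.31e-08), from 10.23, 10.10, 10.07, 10.33 and 10.45 to 7.92, 8.71, 8.69, 8.64 and 8.59.

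Within the list, Ucn3, G6pc2, Glp1r and Ffar1, genes of the mature glucose-responsive cell, fell the furthest. Glp1r, the receptor of the gut hormone GLP-1, stood at 11.58, 11.12, 11.34, 11.75 and 11.62 in tumours and at 7.75, 8.63, 9.02, 8.55 and 7.93 in primaries. It fell 8.63-fold (adjusted p = 1.37e-09), with primary 3 highest of its class. G6pc2, the glucose-6-phosphatase of islets, stood at 12.08, 11.75, 11.39, 12.26 and 12.04 in tumours and at 7.96, 9.27, 9.24, 8.77 and 8.19 in primaries, and fell 9.31-fold (adjusted p = 5.98e-09). Ucn3, a peptide of mature beta cells, stood at 10.41, 10.40, 10.85, 10.52 and 10.80 in tumours and at 6.97, 7.94, 7.79, 7.25 and 6.63 in primaries, and fell 9.7-fold (adjusted p = 2.9e-10). For Glp1r, G6pc2 and Ucn3 the primaries differed among themselves by over 1 log2, yet no primary came within 2 log2 of a tumour. Ffar1, a receptor of fatty acids, fell by 2.996 ± 0.23 log2, and Slc2a2, the glucose carrier of beta cells, by 2.01 ± 0.29 log2.

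The potassium channel whose closing sets off insulin release was unlike these. Kcnj11, its pore, stood at 9.41, 8.60, 9.27, 9.51 and 9.03 in tumours and at 9.50, 9.54, 9.19, 9.15 and 9.41 in primaries, a difference of 0.19 ± 0.13 log2 (adjusted p = 0.314). Abcc8, its sulfonylurea-binding subunit, stood at 11.82, 10.26, 11.89, 11.90 and 10.92 in tumours and at 11.41, 11.56, 11.20, 11.09 and 11.32 in primaries, a difference of -0.04 ± 0.22 log2 (adjusted p = 0.931). The tumours were the more varied class for Abcc8, with tumours 2 and 5 below all primaries.

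**Figure D2:**
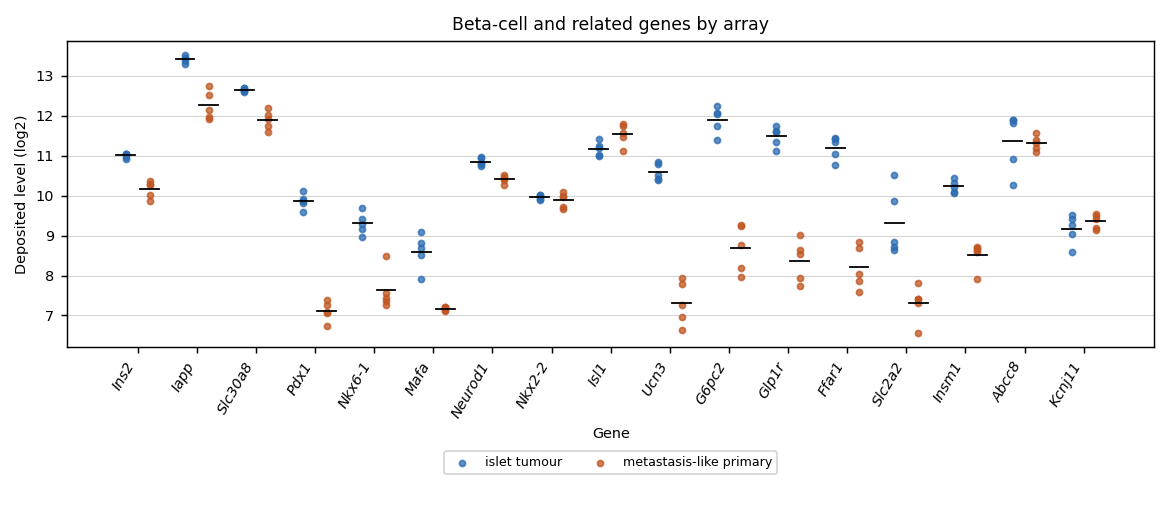
Deposited log2 level of beta-cell and related genes on each array of the 5 islet tumours (blue) and 5 metastasis-like primaries (orange); black lines are class means. Pdx1, Ucn3, G6pc2, Glp1r and Ffar1 lie apart by about 3 log2, while Nkx2-2, Abcc8 and Kcnj11 overlap.

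Among the largest falls outside the list were further genes known from beta cells. Bace2, a protease that trims beta-cell surface proteins, had the largest fall of all 19938 genes: it stood at 10.99, 10.75, 10.84, 10.79 and 10.85 in tumours and at 7.26, 7.58, 7.83, 7.52 and 6.91 in primaries (10.7-fold lower, adjusted p = 1.78e-12). Atp2a3, a calcium pump of the endoplasmic reticulum, fell by 2.93 ± 0.23 log2, and Scgn, the calcium-binding protein secretagogin, by 2.62 ± 0.23 log2. Hadh, an enzyme of fatty acid oxidation in mitochondria, fell by 2.79 ± 0.21 log2. Pip5k1b, a kinase of membrane lipids, fell by 2.80 ± 0.20 log2, the magnesium carrier Nipal1 by 2.63 ± 0.19, Tmem215 by 2.58 ± 0.19 and Tenm3, a cell-surface teneurin, by 2.61 ± 0.21.

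Of 9 measured genes that mark alpha, delta and PP cells, 4 fell and 3 rose, with a median difference of -0.38 log2. The hormones and the transcription factors went different ways. Irx1, a homeobox factor of alpha cells, stood at 6.92, 6.77, 6.89, 6.87 and 6.92 in tumours and at 8.64, 8.76, 8.57, 8.56 and 9.11 in primaries, with narrow spreads in both classes, and rose 3.62-fold (1.86 ± 0.10 log2, adjusted p = 1.31e-11). Irx2, its neighbour in the family, stood at 8.91, 8.12, 8.26, 8.54 and 8.25 in tumours and at 10.24, 10.33, 10.08, 10.25 and 10.46 in primaries, and rose 3.62-fold (adjusted p = 6.06e-10). Etv1, an ETS factor, rose by 0.99 ± 0.15 log2, and Hhex, a homeobox factor of delta cells, fell by 0.38 ± 0.14. Hhex was not called without tumour 1, 4 or 5 or any of primaries 1 to 4 (adjusted p from 0.0625 to 0.103).

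Pou3f4, a POU factor that alpha cells carry and which the list did not hold, was among the largest rises. It stood at 6.59, 6.62, 6.71, 7.16 and 7.0 in tumours and at 10.15, 10.04, 10.17, 10.21 and 10.21 in primaries, a 10.1-fold rise (adjusted p = 1.29e-11), and the 5 primaries lay within 0.2 log2 of each other. The glucagon gene Gcg did not rise with these factors: it stood at 10.11, 8.30, 9.29, 11.03 and 10.90 in tumours and at 8.11, 9.56, 9.97, 8.53 and 9.21 in primaries, a difference of -0.85 ± 0.39 log2 (adjusted p = 0.122). Without tumour 2, the lowest of its class, that difference was -1.26 log2 (adjusted p = 0.00624). Somatostatin (Sst) fell by 0.84 ± 0.19 log2, peptide YY (Pyy) by 0.98 ± 0.21 and pancreatic polypeptide (Ppy) by 1.80 ± 0.44. Ppy ranged over 8.33 to 12.27 in tumours and over 8.09 to 8.41 in primaries, and its lowest tumour lay inside the range of the primaries.

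Genes of the secretory granule were mixed, with 7 of 19 measured genes higher and 5 lower and a median difference of 0.14 log2. The list averaged 10.11 to 10.25 in tumours and 10.01 to 10.53 in primaries. Scg3, a granin that sorts hormones into granules, stood at 11.58, 11.56, 11.68, 11.68 and 11.67 in tumours and at 9.94, 9.63, 9.97, 10.70 and 8.999 in primaries, and fell 3.46-fold (adjusted p = 1.42e-07). Chga, the granin used as a marker of neuroendocrine tumours, fell by 0.53 ± 0.10 log2 (adjusted p = 0.000306). Ptprn, a membrane protein of granules, rose by 0.87 ± 0.13 log2, the fusion protein Snap25 by 0.69 ± 0.09, the calcium sensor Syt4 by 0.74 ± 0.10, and the chaperone Scg5 by 0.54 ± 0.10. Syp, the vesicle protein synaptophysin, stood at 10.09 to 10.63 in tumours and at 10.17 to 10.56 in primaries (0.10 ± 0.10 log2, adjusted p = 0.515). The convertase Pcsk1, which cuts prohormones, stood at 10.54, 11.16, 10.48, 11.25 and 10.38 in tumours and at 10.22, 9.20, 9.08, 11.71 and 9.26 in primaries, with primary 4 above every tumour. Its difference was -0.86 ± 0.35 log2 (adjusted p = 0.0743), and without primary 4 it was -1.32 log2 (adjusted p = 0.000109).

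Genes shared with neurons were higher in metastasis-like primaries. Of 18 measured neuronal genes, 11 rose and 1 fell (Cacna1a), with a median difference of 0.51 log2, and the list averaged 8.23 to 8.52 in tumours against 8.77 to 9.17 in primaries. In a fit of the 10 arrays alone 7 rose. None of the 6 measured glial genes was called, Sox10 and Gfap included.

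Receptor subunits for the transmitters GABA and glutamate were among the genes that rose. Gabrb1, a subunit of the GABA-A chloride channel, stood at 5.15, 5.13, 4.83, 5.52 and 4.97 in tumours and at 8.79, 8.46, 8.61, 8.63 and 7.88 in primaries, and rose 10.2-fold (3.35 ± 0.15 log2, adjusted p = 1.78e-12). Its neighbours on the chromosome, looked at after the values were seen, code for subunits of the same channel. Gabrg1 stood at 4.80, 4.92, 5.07, 5.03 and 4.87 in tumours and at 7.85, 8.71, 8.62, 6.06 and 7.27 in primaries, and rose by 2.76 ± 0.34 log2 (adjusted p = 2.31e-06). The tumours were alike, and the primaries spread over more than 2 log2, with primary 4 the lowest. Gabra2 rose by 2.28 ± 0.35 log2 and Gabra4 by 0.76 ± 0.15, so that 4 of the 5 measured genes of this run were higher. The fifth, Cox7b2, which codes for a subunit of a respiratory enzyme and lies among them, had a difference of 0.10 ± 0.10 log2 (adjusted p = 0.558).

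Gria2, a subunit of the AMPA-type glutamate receptor, stood at 8.94, 9.33, 9.24, 8.49 and 8.09 in tumours and at 11.21, 11.10, 10.95, 11.24 and 11.01 in primaries, a 4.87-fold rise (adjusted p = 2.32e-09). The tumours spread over more than 1 log2 and the primaries over less than 0.3. Cacna1a, a subunit of the presynaptic calcium channel, went the other way and fell by 0.93 ± 0.13 log2 (adjusted p = 6.71e-06), with no overlap. Without primary 4, 2 neuronal genes fell. Stmn3, a stathmin that regulates microtubules, rose 3.16-fold (adjusted p = 1.31e-11), from 8.86 to 9.12 in tumours to 10.51 to 10.84 in primaries. The neuronal RNA-binding proteins Elavl2 and Elavl3 rose by 1.55 ± 0.16 and 1.38 ± 0.12 log2, and the splicing regulator Celf4 by 0.58 ± 0.07. Gap43, a protein of growing axons, rose by 1.41 ± 0.35 log2 with overlapping arrays, and primary 4 was the highest at 11.17.

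The 15 largest rises also held genes outside the neuronal list, described here singly and not as a theme. Nsg2, a protein of neuronal vesicle traffic, stood at 6.92, 7.38, 7.39, 7.62 and 7.36 in tumours and at 10.49, 10.41, 10.34, 10.49 and 10.42 in primaries, and rose 8.54-fold (adjusted p = 1.44e-12). Nexmif, a gene of the X chromosome that acts in neurite growth, rose 10.2-fold, from 4.997 to 5.63 in tumours to 8.33 to 8.93 in primaries. Gng3, a G protein subunit of neurons, rose 7.72-fold and Rgs6, a brake on G protein signals, 7.61-fold. Tfap2b, a transcription factor of the neural crest, stood at 5.91, 6.11, 6.25, 7.08 and 6.56 in tumours and at 9.78, 9.40, 9.52, 10.51 and 10.14 in primaries, a 11.2-fold rise (adjusted p = 1.47e-09). The nucleotidyltransferase gene Tent5d rose 7.94-fold.

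Neuropeptides moved in both directions. Cartpt, the CART peptide of brain and islets, stood at 8.73, 8.37, 8.46, 10.51 and 9.26 in tumours and at 12.73, 11.57, 11.46, 12.85 and 12.37 in primaries, and rose 8.76-fold (adjusted p = 1.41e-05). Tumour 4 was the highest of its class and still below the lowest primary. Galanin (Gal) stood at 6.09, 6.95, 6.62, 6.34 and 6.62 in tumours and at 9.78, 10.35, 10.08, 8.91 and 8.80 in primaries, and rose 8.35-fold (adjusted p = 2.57e-08). Neuropeptide Y (Npy), which the beta-cell list held, stood at 11.07, 10.43, 10.70, 11.82 and 10.59 in tumours and at 7.96, 8.57, 9.15, 9.66 and 8.92 in primaries, and fell 4.2-fold (adjusted p = 3.18e-05).

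**Figure D3:**
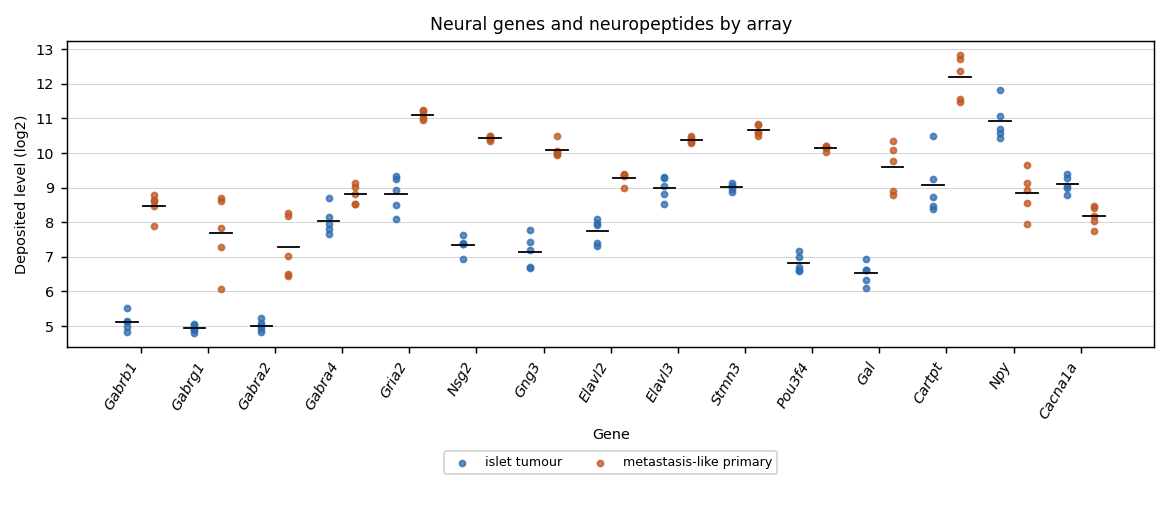
Deposited log2 level of genes shared with neurons on each array of the 5 islet tumours (blue) and 5 metastasis-like primaries (orange); black lines are class means. Gabrb1, Nsg2 and Pou3f4 lie about 3 log2 higher in primaries with little spread, Gabrg1 and Gabra2 are spread widely in primaries, and Npy and Cacna1a are lower.

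Receptors that are targets in neuroendocrine tumours also changed. Of 9 measured somatostatin and dopamine receptors, 4 rose and 2 fell, with a median difference of 0.10 log2. Sstr3 stood at 9.39, 9.58, 9.94, 9.74 and 9.40 in tumours and at 8.63, 8.77, 8.70, 8.54 and 8.29 in primaries, and fell by 1.02 ± 0.11 log2 (adjusted p = 1.97e-07). Sstr5 fell by 0.65 ± 0.11 log2. Sstr1 rose by 0.93 ± 0.12 log2, and Sstr2, the receptor that somatostatin analogues bind best, stood at 6.78, 6.57, 6.71, 6.52 and 6.48 in tumours and at 7.17, 6.92, 6.80, 7.74 and 6.96 in primaries, a rise of 0.50 ± 0.14 log2 (adjusted p = 0.0113) without overlap. Drd2, the dopamine receptor of pituitary and islet cells, rose by 0.72 ± 0.14 log2.

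Some imprinted genes, which are active only from the maternal or only from the paternal copy, showed large changes of opposite sign. Of 16 measured imprinted and oncofetal genes, 4 rose, 2 fell and 10 were not called (37.5% called, against 26.5% over all genes). Their median difference was -0.09 log2. Igf2, the fetal growth factor that islet tumours of this model rely on, stood at 11.22, 11.20, 10.62, 11.21 and 10.91 in tumours and at 7.94, 8.52, 8.20, 8.75 and 8.08 in primaries. It fell 6.66-fold (-2.73 ± 0.28 log2, adjusted p = 1.69e-07), and all primaries lay at least 1 log2 below all tumours. Plagl1, a zinc finger factor of the same growth network, fell by 1.20 ± 0.18 log2 (adjusted p = 1.99e-05). Peg10, a gene derived from a retrotransposon, stood at 8.52, 9.68, 10.20, 10.42 and 9.99 in tumours and at 13.17, 13.16, 13.11, 13.33 and 13.06 in primaries, and rose 10.6-fold (adjusted p = 1.78e-07). Tumours were spread over nearly 2 log2, with tumour 1 the lowest, while the primaries were within 0.3 log2. Mest rose by 1.11 ± 0.18 log2, the signalling adaptor Grb10 by 0.90 ± 0.24, and Lin28b, a fetal RNA-binding protein that blocks let-7 miRNAs, by 2.37 ± 0.20 log2 (adjusted p = 1.48e-08), from 5.55 to 6.16 in tumours to 7.70 to 8.83 in primaries.

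The measured genes along the chromosome from Calcr to Pdk4, which hold the imprinted cluster of Peg10, were read after its value was seen, so their count has no test. Of these 15 genes, 8 were called higher and 0 lower. Sgce, which shares a start region with Peg10, stood at 6.71, 6.74, 7.34, 7.30 and 7.12 in tumours and at 9.998, 9.78, 9.82, 9.90 and 10.06 in primaries, and rose 7.31-fold (adjusted p = 1.03e-12). Asb4, a subunit of ubiquitin ligases, stood at 6.02, 6.50, 6.99, 7.40 and 6.43 in tumours and at 10.21, 8.74, 10.40, 10.15 and 9.48 in primaries, and rose 8.75-fold (adjusted p = 1.44e-08). Casd1, Ppp1r9a, Pon3 and Pdk4 rose by 0.78 to 0.98 log2. Calcr, the calcitonin receptor, stood at 7.18, 6.19, 5.69, 8.81 and 6.24 in tumours and at 11.76, 6.63, 7.12, 12.22 and 8.58 in primaries. Primaries 1 and 4 were near 12 and the other primaries between 6.63 and 8.58, inside the range of the tumours. Its rise of 2.44 ± 0.88 log2 had an adjusted p of 0.0441, which lay between 0.0505 and 0.146 without tumour 1, 2, 3 or 5 or primary 1, 4 or 5. Calcr was also not called in a fit of the 10 arrays alone (adjusted p = 0.129), and an exact permutation test gave p = 0.0952. The genes between them were not alike: Tfpi2, Gngt1, Gng11, Bet1, Col1a2, Pon1 and Pon2 were not called and had differences between -0.27 and 0.22 log2. Without tumour 1 or primary 4 the lowest of them, Bet1, a protein of Golgi traffic, was called (-0.34 log2 in both fits, adjusted p = 0.0349 and 0.0343).

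**Figure D4:**
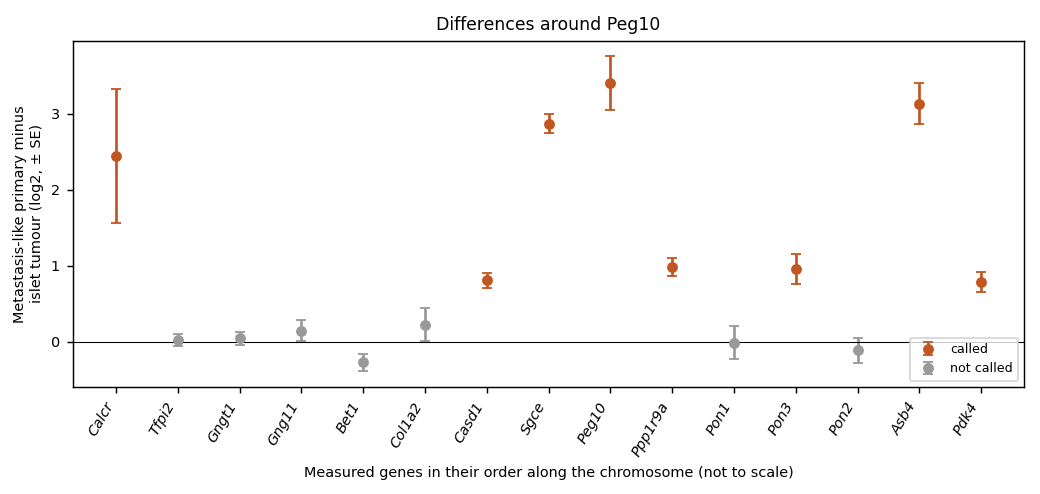
Difference between metastasis-like primaries and islet tumours (log2, points; bars are ± SE) for the 15 measured genes around Peg10, in their order along the chromosome and not to scale. Orange genes were called; Sgce, Peg10 and Asb4 rise by about 3 log2, and the 7 genes not called lie between -0.27 and 0.22 log2.

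Around Igf2, 4 of 5 measured genes were lower, again read after the values were seen. They were Igf2, its neighbour Ins2, the tyrosine hydroxylase gene Th, which fell by 1.36 ± 0.24 log2, and the ribosomal protein gene Mrpl23, which fell by 0.43 ± 0.15. Mrpl23 was not called without tumour 2, 4 or 5 or primary 2, 4 or 5 (adjusted p from 0.0548 to 0.122). Nnat, an imprinted gene of islets and brain that the list did not hold, stood at 12.01, 11.53, 10.92, 12.12 and 11.72 in tumours and at 8.30, 8.71, 9.29, 9.91 and 8.96 in primaries, and fell 6.19-fold (adjusted p = 1.55e-06). Blcap, within whose intron Nnat lies, fell by 0.84 ± 0.07 log2 (adjusted p = 1.24e-08).

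Sugar use and lactate genes were higher in metastasis-like primaries. Of 17 measured genes of glycolysis and lactate export, 10 rose and 2 fell (Pfkl and Ldhb), with a median difference of 0.53 log2, and the list averaged 8.83 to 9.07 in tumours against 9.29 to 9.79 in primaries. Slc2a3, a glucose carrier of high affinity known from neurons, stood at 7.02, 6.65, 6.60, 6.88 and 6.70 in tumours and at 9.63, 9.28, 9.44, 9.81 and 9.66 in primaries, and rose 6.94-fold (2.80 ± 0.13 log2, adjusted p = 2.48e-12). Slc2a2, the beta-cell glucose carrier, had fallen, as given above, and Slc2a1, the carrier of most tissues, differed by -0.12 ± 0.15 log2 (adjusted p = 0.629).

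Slc16a1, the monocarboxylate carrier that beta cells keep silent, stood at 7.14, 6.98, 6.96, 7.08 and 6.69 in tumours and at 8.77, 8.53, 8.73, 8.84 and 9.11 in primaries. It rose 3.55-fold (adjusted p = 5.1e-10), and the classes were 1.39 log2 apart at their nearest arrays. Ldha, which turns pyruvate into lactate, stood at 8.60, 8.69, 8.51, 8.996 and 8.79 in tumours and at 9.07, 8.87, 9.33, 10.58 and 9.52 in primaries, with primary 4 more than 1 log2 above the next. It rose by 0.76 ± 0.22 log2 (adjusted p = 0.0128), and in a fit of the 10 arrays alone had an adjusted p of 0.0553. Ldhb, the form that favours pyruvate, fell by 0.70 ± 0.12 log2 (adjusted p = 0.000119), and Slc16a3, the carrier that exports lactate, rose by 0.72 ± 0.16 log2. Pfkp and Pfkm, forms of phosphofructokinase, rose by 0.89 ± 0.12 and 0.64 ± 0.09 log2, the isomerase Tpi1 by 0.73 ± 0.10 and pyruvate kinase Pkm by 0.59 ± 0.08.

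Of 27 measured genes of pyruvate cycling and the citrate cycle, 6 rose and 3 fell (33.3% called, against 26.5% over all genes), with a median difference of 0.07 log2. Pcx, pyruvate carboxylase, which feeds pyruvate into the cycle and is abundant in beta cells, stood at 9.39, 9.49, 9.40, 9.70 and 9.57 in tumours and at 7.57, 7.73, 7.87, 7.94 and 7.71 in primaries, and fell 3.36-fold (adjusted p = 2.99e-12). Me3, a mitochondrial malic enzyme, stood at 6.42, 6.87, 6.71, 6.54 and 6.46 in tumours and at 8.21, 8.51, 8.15, 7.80 and 8.51 in primaries, and rose 3.11-fold (adjusted p = 1.3e-09). Acly, which makes acetyl-CoA from citrate, fell by 0.39 ± 0.08 log2. Pdk4, a kinase that shuts pyruvate dehydrogenase and is also in the Peg10 run, rose by 0.78 ± 0.13 log2, and Dlat, a part of that dehydrogenase, by 0.38 ± 0.06.

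Of 20 measured genes that beta cells are known to keep silent, Slc16a1 and Ldha among them, 7 rose and 1 fell, with a median difference of 0.15 log2. Oat, ornithine aminotransferase, stood at 8.46, 8.61, 7.74, 8.55 and 7.58 in tumours and at 9.69, 8.90, 9.06, 9.68 and 9.68 in primaries, and rose by 1.22 ± 0.20 log2 (adjusted p = 6.47e-05). Smad3, a signal carrier of TGF-beta, rose by 0.70 ± 0.10 log2, and Igfbp4, a binding protein of insulin-like growth factors, by 1.04 ± 0.20 log2 with overlapping arrays. Cd44, a receptor of hyaluronan, was the gene that fell, by 1.42 ± 0.29 log2 (adjusted p = 0.000682), from 7.503, 8.98, 9.28, 8.10 and 9.86 to 6.87, 7.20, 7.67, 7.60 and 7.28. Rest, the repressor of neuronal genes, differed by -0.07 ± 0.14 log2 (adjusted p = 0.794).

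Endothelial genes were lower in metastasis-like primaries, with 14 of 16 measured genes lower, 0 higher and a median difference of -0.79 log2. The list averaged 8.23 to 8.62 in tumours and 7.5 to 7.81 in primaries. Kdr, the main receptor of Vegfa, stood at 9.18, 9.79, 9.41, 9.005 and 9.41 in tumours and at 7.59, 8.16, 8.24, 7.71 and 7.83 in primaries, and fell 2.74-fold (adjusted p = 9.06e-08). Plvap, a protein of the windows in capillary walls, stood at 9.55, 10.45, 10.04, 9.85 and 9.89 in tumours and at 8.25, 8.41, 8.76, 8.37 and 8.20 in primaries, and fell 2.94-fold (adjusted p = 7.93e-08). Pecam1, found on all endothelium, fell by 0.94 ± 0.14 log2 (adjusted p = 2.07e-05), Flt1 by 1.14 ± 0.13, Emcn by 1.49 ± 0.19 and the endothelial cadherin Cdh5 by 0.82 ± 0.10. Vwf, the clotting factor that endothelium stores, and Esam were the members not called; Vwf differed by -0.09 ± 0.15 log2 (adjusted p = 0.731).

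The list of vessel growth factors also held the receptors Nrp1 and Nrp2, thrombospondins and semaphorins. Of its 22 measured genes 11 fell and 4 rose, with a median difference of -0.21 log2. Vegfa stood at 10.46, 11.01, 10.57, 10.42 and 10.61 in tumours and at 8.95, 9.19, 9.32, 8.86 and 9.23 in primaries. It fell 2.84-fold (-1.50 ± 0.10 log2, adjusted p = 4.78e-10), and the classes were more than 1 log2 apart at their nearest arrays. Vegfb, of the same family, fell by 0.41 ± 0.07 log2, and Nrp1, a receptor shared by Vegfa and semaphorins, by 0.75 ± 0.17. Vegfc, the lymphatic member of the family, rose by 0.95 ± 0.24 log2 (adjusted p = 0.00416), from 6.98, 7.10, 7.17, 6.94 and 6.90 in tumours to 8.72, 7.49, 7.32, 8.96 and 7.34 in primaries, where primaries 1 and 4 stood more than 1 log2 above the others. Sema3a, a semaphorin, rose by 1.15 ± 0.29 log2 with overlapping arrays. Of 17 measured hypoxia targets, 4 rose and 2 fell (Vegfa and Egln3), with a median difference of -0.06 log2. P4ha2, a collagen hydroxylase, rose by 1.08 ± 0.15 log2, and Egln3, an oxygen sensor, fell by 0.91 ± 0.17. Without primary 4, the highest of its class for this list, 4 hypoxia targets fell.

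Cells and matrix around vessels moved in the same direction as endothelium in part. Of 10 measured basement membrane genes 6 fell and 0 rose, with a median difference of -0.38 log2. Hspg2, the proteoglycan perlecan, stood at 8.65 to 8.95 in tumours and 8.04 to 8.36 in primaries and fell by 0.63 ± 0.08 log2 (adjusted p = 5.49e-06), and the collagen chain Col4a1 by 0.52 ± 0.09. Of 11 measured pericyte and smooth muscle genes 4 fell and 0 rose, namely Pdgfrb (-0.49 ± 0.11 log2), Notch3 (-0.48 ± 0.09), Rgs5 (-0.39 ± 0.13) and Myh11 (-1.10 ± 0.29). Without primary 2, 1 rose, and Rgs5 was not called without tumour 2 or 3 or primary 1, 4 or 5 (adjusted p from 0.0513 to 0.0846). Fibroblast and matrix genes did not follow, with 2 of 18 higher, Postn by 0.89 ± 0.26 log2 and Thbs4 by 1.03 ± 0.25, and 0 lower (1 lower without tumour 1 or primary 3). Col1a1, a fibrillar collagen, stood at 9.73 to 10.43 in tumours and 9.93 to 10.77 in primaries (0.25 ± 0.19 log2, adjusted p = 0.404).

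Several epithelial junction genes were lower. Of 18 measured genes of adhesion and mesenchymal transition, 8 fell and 4 rose, with a median difference of -0.08 log2. Cdh1, the epithelial cadherin, stood at 9.16, 9.18, 9.77, 9.999 and 9.80 in tumours and at 7.002, 7.81, 8.24, 7.38 and 7.76 in primaries, and fell 3.84-fold (-1.94 ± 0.20 log2, adjusted p = 2.57e-07). Esrp1, an epithelial splicing factor, stood at 8.99, 8.72, 9.01, 9.77 and 9.44 in tumours and at 6.13, 6.88, 7.19, 6.82 and 6.79 in primaries, and fell 5.38-fold (adjusted p = 8.61e-09). Epcam, an adhesion protein of epithelia, fell by 1.80 ± 0.21 log2 and the tight junction protein Ocln by 0.72 ± 0.11. For Cdh1, Esrp1 and Epcam primary 1 was the lowest array.

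Genes of the mesenchymal program rose in part. The transcription factor Zeb1 rose by 0.64 ± 0.09 log2 (adjusted p = 6.92e-06), from 9.06 to 9.50 to 9.85 to 10.18, and Ncam1, an adhesion protein of neural and endocrine cells, by 0.83 ± 0.09 log2 (adjusted p = 3.2e-07). Snai2 rose by 0.69 ± 0.20 log2 with overlapping arrays, and had an adjusted p of 0.0624 in a fit of the 10 arrays alone. Vim, the filament protein vimentin, stood at 9.10, 9.60, 9.45, 9.62 and 9.18 in tumours and at 9.73, 9.58, 9.80, 10.34 and 9.78 in primaries, a difference of 0.46 ± 0.17 log2 (adjusted p = 0.0537); without tumour 2, tumour 4 or primary 2 the adjusted p was 0.0463, 0.0437 and 0.039. Zeb2, Snai1 and Twist1 were not called, with differences of 0.01, -0.03 and -0.04 log2.

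Ductal markers fell in 4 of 10 measured genes and rose in 1, with a median difference of -0.17 log2. Krt7, a keratin of simple epithelia, stood at 10.45, 10.32, 11.05, 10.87 and 11.03 in tumours and at 8.19, 8.37, 8.69, 8.55 and 8.19 in primaries, and fell 5.08-fold (adjusted p = 1.32e-10). Krt8 fell by 1.18 ± 0.14 log2, its partner Krt18 by 0.49 ± 0.16 and the annexin Anxa3 by 0.50 ± 0.13. Krt18 was not called without tumour 4 or primary 1, 2 or 4 (adjusted p from 0.0675 to 0.0911). Krt19, the keratin used to mark ducts, did not fall with them: it stood at 6.55, 6.53, 6.45, 7.31 and 6.33 in tumours and at 6.32, 7.11, 7.53, 6.56 and 6.98 in primaries (0.27 ± 0.31 log2, adjusted p = 0.619). Car2, carbonic anhydrase II, was the member that rose, 5.05-fold (adjusted p = 2.39e-06), from 5.94 to 6.70 in tumours to 8.01 to 9.78 in primaries.

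Growth factor receptors and proteases were mixed. Of 24 measured genes of the growth factor axis, 5 rose and 7 fell, with a median difference of -0.08 log2. Egfr fell by 1.04 ± 0.12 log2 (adjusted p = 6.29e-07), from 7.68 to 8.18 to 6.67 to 7.40, Fgfr2 by 1.16 ± 0.17 and the receptor of GDNF, Ret, by 1.34 ± 0.23. Igf1r, the receptor of Igf2, fell by 0.64 ± 0.12 log2 and Fgfr1 rose by 0.49 ± 0.09. Of 17 measured proteases and inhibitors 6 rose and 1 fell, with a median difference of 0.16 log2. Mmp2, a gelatinase that cuts basement membrane collagen, stood at 8.21, 7.71, 7.99, 8.72 and 8.39 in tumours and at 9.99, 9.39, 9.61, 10.16 and 9.83 in primaries, and rose 3.02-fold (adjusted p = 4.09e-07). Cathepsin L (Ctsl) rose by 0.82 ± 0.12 log2, the inhibitor Timp3 by 0.66 ± 0.14, and heparanase (Hpse), which cuts heparan sulfate, fell by 1.22 ± 0.19.

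Some proteins of blood plasma were higher in metastasis-like primaries, though their list's share of called genes (25%) was near that over all genes (26.5%). Serpina1c, a copy of the alpha-1-antitrypsin gene, had the largest rise of all: it stood at 5.66, 6.74, 8.38, 7.08 and 7.40 in tumours and at 11.39, 11.27, 10.94, 10.09 and 11.30 in primaries (15.4-fold, 3.95 ± 0.60 log2, adjusted p = 3.22e-05). Tumours were spread over 2.7 log2, with tumour 1 the lowest and tumour 3 the highest. Serpina1d rose by 2.90 ± 0.30 log2, but the copies of this gene are nearly identical in sequence, so a probe set named for one copy may read others. The windows before the start sites of Alb and of both copies are shown because all these genes rose, with GTTAAT in capitals, letters found in sites of the liver and islet factor HNF1 (GRCm38.p6, RefSeq): Alb at chr5:90460620-90460869 on the plus strand, Serpina1c at chr12:103904951-103905200 and Serpina1d at chr12:103773634-103773883, both on the minus strand.

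Alb: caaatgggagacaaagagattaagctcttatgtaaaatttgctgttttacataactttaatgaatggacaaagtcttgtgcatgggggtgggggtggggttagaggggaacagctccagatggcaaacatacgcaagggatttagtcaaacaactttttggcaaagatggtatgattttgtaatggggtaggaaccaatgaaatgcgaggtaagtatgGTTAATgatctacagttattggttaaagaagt
Serpina1c: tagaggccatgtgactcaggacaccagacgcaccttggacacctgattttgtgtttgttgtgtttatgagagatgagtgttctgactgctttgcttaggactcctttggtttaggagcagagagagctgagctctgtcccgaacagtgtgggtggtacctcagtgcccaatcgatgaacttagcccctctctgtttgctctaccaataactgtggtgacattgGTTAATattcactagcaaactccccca
Serpina1d: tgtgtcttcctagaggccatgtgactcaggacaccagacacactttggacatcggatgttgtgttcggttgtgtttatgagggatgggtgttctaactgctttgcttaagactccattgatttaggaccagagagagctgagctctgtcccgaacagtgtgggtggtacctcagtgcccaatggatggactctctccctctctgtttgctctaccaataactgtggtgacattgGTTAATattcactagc

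In these windows GTTAAT began 32 bases before the start site of Alb, 27 before that of Serpina1c and 16 before that of Serpina1d. With the Serpina1d window shifted by 11 bases, 180 of 239 bases of both copies were identical. On both strands (GTTAAT or ATTAAC) the letters lay in 6.43% of 32851 windows, in 4.70% of those of genes called higher and in 4.27% of those of genes called lower, and in 6 of 20 windows of 18 secreted hepatocyte proteins. This says nothing on binding.

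Albumin (Alb) stood at 7.80, 6.50, 6.04, 8.24 and 6.72 in tumours, at 9.67, 8.20, 7.61, 11.78 and 9.68 in primaries and at 13.16, 13.08 and 12.89 in liver metastases. Primaries 2 and 3 lay within the range of the tumours, and primary 4 was the highest. Its rise of 2.33 ± 0.71 log2 (adjusted p = 0.0172) rested on primary 4, without which it was 1.73 log2 (adjusted p = 0.0595). Rbp4, the carrier of retinol, stood at 8.50, 9.72, 8.84, 9.06 and 9.06 in tumours and at 11.72, 12.18, 11.23, 11.46 and 11.01 in primaries, and rose 5.6-fold (adjusted p = 3.26e-09). Transthyretin (Ttr), which islets also make, rose 2.96-fold (adjusted p = 4.2e-09), the iron carrier Trf 3.77-fold Apoc3 2.63-fold and the hyaluronan-binding protein Itih2 1.6-fold. Of 24 measured members these were the 6 that rose, and 0 fell (1 without primary 3).

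The other 18 measured members of the secreted list were not called, and 16 of 20 enzymes were not called either. Apob stood at 5.58 to 5.85 in tumours, 5.68 to 5.99 in primaries and 9.41 to 10.19 in liver metastases. The fibrinogen chain Fgb stood at 5.64 to 5.96, 5.73 to 5.99 and 10.41 to 10.88 in the same order, the drug-metabolizing enzyme Cyp2e1 at 4.96 to 5.48, 4.84 to 5.18 and 9.78 to 10.91, and the fatty acid carrier Fabp1 at 4.53 to 4.82, 4.63 to 5.003 and 7.33 to 8.31. Alpha-fetoprotein (Afp) stood at 5.25 to 5.57 in tumours and 5.18 to 5.42 in primaries. Among the 20 enzymes, Dpyd, which breaks down pyrimidines, rose by 0.60 ± 0.14 log2, Fbp1, an enzyme of glucose synthesis, by 0.98 ± 0.26 and arginase 1 (Arg1) by 0.46 ± 0.16. Arg1 was not called without tumour 2, 3 or 5 or primary 1 or 2 (adjusted p from 0.0548 to 0.14). Tat, a tyrosine aminotransferase, fell by 1.77 ± 0.18 log2 (adjusted p = 1.1e-07). Gpx3, a plasma peroxidase that neither list held, rose 9.63-fold (adjusted p = 1.04e-08), from 7.94, 7.29, 7.33, 8.60 and 7.47 in tumours to 11.79, 10.30, 10.46, 11.78 and 10.63 in primaries.

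Few genes of dividing cells differed. Of 34 measured cell cycle genes, 3 rose and 2 fell, with a median difference of 0.01 log2. Mki67, the proliferation marker, stood at 10.72, 10.70, 9.94, 10.67 and 11.02 in tumours and at 10.24, 10.48, 10.67, 11.05 and 11.15 in primaries (0.11 ± 0.27 log2, adjusted p = 0.85), and Top2a differed by -0.02 ± 0.27 log2 (adjusted p = 0.977). Cdkn1b, an inhibitor of the cycle, rose by 0.30 ± 0.07 log2, cyclin E2 (Ccne2) by 0.46 ± 0.15 and the factor E2f2 by 0.28 ± 0.10, while Ccnd1, cyclin D1, fell by 0.35 ± 0.10 and its kinase Cdk4 by 0.26 ± 0.08. Without tumour 1, tumour 4, primary 4 or primary 5 only Cdkn1b of these risers was called, Ccne2 having an adjusted p of 0.0501 to 0.0876 there. E2f2 was also lost without tumour 2, tumour 3 or primary 3, with an adjusted p of 0.0578 to 0.123 over all 7 fits. Without tumour 2 only Ccnd1 fell (Cdk4 adjusted p = 0.0512), and without primary 5, 4 genes fell. Another probe set of Cdkn1b, tested as its own feature, differed by 0.32 log2 and was not called (adjusted p = 0.0647).

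The next 3 programs had 23.5% to 50% of their measured genes called, against 26.5% over all genes. Of 18 measured genes of pancreatic progenitors, 2 rose and 4 fell: Foxa1 rose by 0.86 ± 0.15 log2 and Hnf4a by 0.61 ± 0.09, while Foxa3 fell by 1.10 ± 0.13, Hnf4g by 0.61 ± 0.18 and Prox1 by 0.30 ± 0.08, besides Insm1. The endocrine progenitor factor Neurog3 differed by -0.08 ± 0.09 log2 (adjusted p = 0.611). Of 17 genes of the unfolded protein response 4 fell and 0 rose, Creld2 by 0.70 ± 0.14 log2, the sensor Atf6 by 0.40 ± 0.08, Trib3 by 0.53 ± 0.16 and the chaperone Calr by 0.32 ± 0.08; without tumour 1, tumour 4, primary 2 or primary 3, 1 rose, and without tumour 4 Trib3 had an adjusted p of 0.0566. Sterol and fatty acid synthesis had 6 of 16 genes higher and 2 lower, with Elovl6 higher by 0.92 ± 0.21 log2, Srebf1 lower by 0.60 ± 0.07 and Sqle lower by 0.33 ± 0.11. Without tumour 2, 4 or 5 or primary 1, 2 or 3, 1 was lower, since Sqle then had an adjusted p of 0.0675 to 0.0854.

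Signs of tissue handling and of immune cells were also read. Of 14 immediate-early and heat shock genes, which respond to handling of tissue, 4 rose and 0 fell (28.6% called, against 26.5% over all genes). Jun rose by 0.87 ± 0.14 log2, Dusp1 by 0.88 ± 0.22, Ier3 by 0.68 ± 0.20 and Fos by 0.73 ± 0.17. In a fit of the 10 arrays alone Ier3 had an adjusted p of 0.0805. That list averaged 7.25 to 7.52 in tumours and 7.52 to 8.09 in primaries. Whether handling had a part in the other rises was not tested. Of 18 interferon and antigen presentation genes 1 rose, the proteasome subunit Psmb8 (0.83 ± 0.14 log2), and the risers were 2 without tumour 2, 4 without tumour 5 and 3 without primary 4, while 1 fell without tumour 2, tumour 3 or primary 5. Of 16 macrophage genes Itgam rose by 0.54 ± 0.13 log2 and C1qa fell by 0.46 ± 0.15; without primary 4, 2 rose, and without tumour 5 or primary 1, 4 or 5, 0 fell (C1qa adjusted p from 0.053 to 0.0892). Of 10 tumour suppressors of neuroendocrine tumours 3 rose (30% called, against 26.5% over all genes). These were Daxx, Atrx and Phlda3, by 0.23 ± 0.07, 0.24 ± 0.08 and 0.23 ± 0.07 log2. In this list 1 rose without primary 2 or primary 4, and 1 fell without tumour 3 or tumour 5. With 1 array left out, the fits that lost a call had an adjusted p between 0.0536 and 0.0852. They left out tumour 1 or primary 1 or 5 (Daxx), tumour 2 or primary 2 or 4 (Atrx), or tumour 3 or 5 or primary 2 or 4 (Phlda3). In a fit of the 10 arrays alone Daxx and Phlda3 were not called (adjusted p = 0.0732 and 0.113).

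Levels in normal islets, measured on the same type of array, are given beside both classes. No tumour or primary shares a title code with the normal islets, so class and code cannot be told apart here. The acinar list averaged 8.37 to 12.32 in normal islets, 11.48 to 12.09 in tumours and 10.19 to 12.56 in primaries. The immediate-early and heat shock list, a sign of handling, averaged 9.20 ± 0.16 (SD, n = 3) in normal islets, 7.41 ± 0.11 (n = 5) in tumours and 7.73 ± 0.22 (n = 5) in primaries, and its part in these levels was not tested. The beta-cell list averaged 11.05 ± 0.07 (SD, n = 3) in normal islet samples, above the tumours (10.35 to 10.81) and the primaries (8.96 to 9.42). Pdx1 averaged 10.17 ± 0.11 (SD, n = 3) in normal islets, 9.86 ± 0.19 (n = 5) in tumours and 7.11 ± 0.25 (n = 5) in primaries. Normal and tumour levels of Pdx1 lay within 1 log2, and the drop was at the primaries. Igf2 was lower and more variable in normal islets at 8.43 ± 1.09, high in tumours at 11.03 ± 0.26 and low in primaries at 8.30 ± 0.33. Peg10 averaged 7.97 ± 0.02 in normal islets, 9.76 ± 0.75 in tumours and 13.17 ± 0.10 in primaries, and Gabrb1 averaged 4.85 ± 0.19, 5.12 ± 0.26 and 8.47 ± 0.35. Irx1, which normal islets hold in their alpha cells, averaged 7.46 ± 0.06 in normal islets, 6.87 ± 0.06 in tumours and 8.73 ± 0.23 in primaries. The cell cycle list averaged 7.43 to 8.45 in normal islets, 9.18 to 9.49 in tumours and 9.03 to 9.68 in primaries.

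Liver metastases were set beside both classes for the genes above. Between metastases and metastasis-like primaries 3126 of 19938 genes (15.7%) were called, and this comparison shares the 5 primaries with the one above, so values stand side by side. Beta-cell genes stood nearer the primaries than the tumours: the list averaged 9.28 to 9.74 in metastases, and Pdx1 stood at 7.36, 7.40 and 8.01, 0.48 ± 0.16 log2 above the primaries (adjusted p = 0.0378). Peg10 stood at 13.22, 13.24 and 13.16 in metastases (0.04 ± 0.40 log2 against primaries, adjusted p = 0.965), Slc16a1 at 8.91, 8.99 and 9.08 (0.20 ± 0.14, adjusted p = 0.417) and Vegfa at 9.06, 9.10 and 9.15 (-0.01 ± 0.12, adjusted p = 0.983). For each of these genes, which are examples, the mean of the metastases was within 0.5 log2 of the mean of the primaries. Other genes described above differed more, such as Calcr (2.95 log2, metastases minus primaries), Asb4 (0.93) and Gabrb1 (-0.66). Slc2a2 was 1.31 ± 0.33 log2 higher in metastases than in primaries (adjusted p = 0.00953), and hepatocytes also carry this carrier.

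The 9 genes described next stood higher in metastasis-like primaries than in the other 5 groups. They are examples picked after their values in both comparisons were seen, and not all such genes, so the levels are a description with no test. Lin28b stood at 5.49, 5.64 and 5.32 in the 3 metastases, against 7.70 to 8.83 in primaries and 5.55 to 6.16 in tumours. Galanin stood at 6.88, 6.51 and 6.74 in metastases and at 8.80 to 10.35 in primaries. Gpm6a, a membrane glycoprotein of neurons, stood at 5.98, 6.62, 6.78, 6.63 and 6.73 in tumours, at 7.69, 11.004, 10.70, 9.06 and 9.68 in primaries and at 5.67, 5.65 and 5.90 in metastases, with the widest spread in primaries. Syt10, a synaptotagmin, stood at 7.95 to 9.44 in primaries, 5.77 to 6.05 in tumours and 5.82 to 6.07 in metastases, and Brinp1, a neural gene, at 8.32 to 8.90, 6.42 to 6.60 and 6.70 to 7.06. In Faim2, Frmd3, Lamp5 and Pgm5, too, every primary lay above every tumour and every metastasis. All 3 metastases have prefix I, and primary 1, of the same prefix, had 7.69 for Gpm6a, the lowest of the primaries, and 9.78 for Gal.

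**Figure D5:**
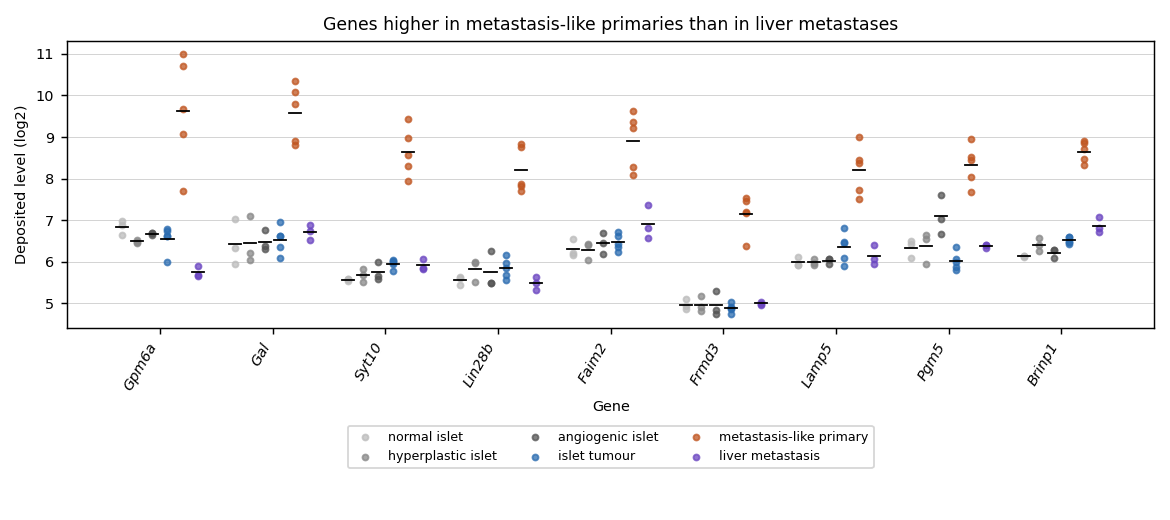
Deposited log2 level of 9 genes, picked after their values were seen, on each array of the 6 groups; black lines are group means. For every gene the metastasis-like primaries (orange) are the highest group, and no array of another group reaches the lowest primary.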

How the data were processed

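Total RNA was purified with TRIzol and labelled by the Affymetrix whole-transcript sense target protocol, per the labels' protocols. The authors deposited log2 expression values of 35511 probe sets, made with aroma.affymetrix according to the series' design text; which background correction, normalization and summary it ran is not stated there. Of the probe sets, 21789 had 1 gene symbol in the platform's annotation and were used, and for 999 genes with several the one with the highest mean was kept, leaving 19938 genes.

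A mean per group was fitted over all 22 arrays with limma 3.58.1 in R 4.3.3, p-values were adjusted by Benjamini-Hochberg over all genes, and an adjusted p below 0.05 was called. Errors of differences are standard errors from that fit. A fit of 10 arrays holds the compared classes alone. The script was tested on simulated data. The number of arrays limits the precision.

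Lists held 606 symbols, 50 of which were not measured. Members of the comparison and lists were chosen with earlier results of these data known. Genes named are from the 15 largest rises and 15 largest falls without overlap, up to 6 called members of each list with the smallest adjusted p, and 13 genes set whatever their values; all others were named after their values were seen. Alternatives were a block on the title prefix (fixed or random), the 10 arrays alone, quantile normalization, median centring, a filter on dim genes, weights per array, a robust and trended variance, every probe set as its own feature, each array left out, an exact permutation test per gene, a fold threshold, and the mean of a cell-type list as covariate; the hepatocyte enzyme covariate was chosen after seeing the data. Deviations from the class means correlated at -0.0874 to 0.206 over 9 same-prefix pairs (mean 0.0437) and at -0.278 to 0.167 over 16 other pairs (mean -0.0243), and the random block's correlation was 0.138. The same-prefix pairs were not all above 0.1 and the labels do not explain the prefix, so it was not taken as a pairing. Pairing by the number that follows the prefix in the titles was not tested.

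Gene order along chromosomes and upstream sequences came from RefSeq (GRCm38.p6), and figures were drawn with matplotlib 3.10.9.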

Additional observations from a re-analysis of the deposited data

Results flagged for a closer look

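In 31 of 510 sets of 5 values (a named gene or a list mean in a class), 1 array stood far from the other arrays of its class: its gap to the nearest was more than 0.71 of the range of the class. This is 6.08%, and chance gives such a gap in about 1 in 20 sets. Values are log2 levels, each against the range of the other 4 arrays of the class, and no cause was tested.

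Primary 1 had 8.99 for Elavl2 against 9.34 to 9.41 and 7.92 for Insm1 against 8.59 to 8.71. It also had 7.55 for Trib3 against 7.69 to 7.74. Primary 3 had 4.84 for Cyp2e1 against 5.11 to 5.18 and 8.32 for Pecam1 against 7.70 to 7.87. It also had 6.78 for Rest against 6.41 to 6.50 and 8.40 for Smad3 against 8.79 to 8.95. Primary 4 had 11.76 for Cpa1 against 12.96 to 13.12 and 6.86 for Egln3 against 5.91 to 6.14. It also had 8.86 for Fgfr1 against 8.35 to 8.47 and 10.50 for Gng3 against 9.95 to 10.07. Further, it had 8.50 for Nkx6-1 against 7.25 to 7.56 and 8.59 for the mean of the hypoxia targets list against 8.12 to 8.25. Further, it had 10.19 for the mean of the acinar cells list against 12.02 to 12.56. Primary 5 had 5.99 for Apob against 5.68 to 5.77.

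Tumour 1 had 10.39 for Atrx against 10.23 to 10.27 and 5.98 for Gpm6a against 6.62 to 6.78. It also had 7.04 for the mean of the red blood cells list against 6.43 to 6.51. Tumour 2 had 9.44 for Flt1 against 8.76 to 8.93 and 8.79 for Pdgfrb against 8.49 to 8.57. It also had 7.21 for Sox10 against 7.35 to 7.38 and 8.51 for the mean of the hypoxia targets list against 8.22 to 8.29. Tumour 3 had 4.99 for Gngt1 against 4.80 to 4.83 and 9.67 for Igfbp4 against 8.29 to 8.65. It also had 8.77 for Ppp1r9a against 8.06 to 8.23. Tumour 4 had 6.27 for Fbp1 against 5.37 to 5.53 and 9.05 for Krt18 against 8.20 to 8.39. It also had 7.31 for Krt19 against 6.33 to 6.55 and 9.37 for Tat against 8.15 to 8.30. Further, it had 8.40 for the mean of the ductal cells list against 7.89 to 8.01. Tumour 5 had 8.85 for the mean of the interferon and antigen presentation list against 7.75 to 7.97.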

How the results depend on the processing

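The count of 5279 genes stayed within 1.5 times under every alternative but the hepatocyte covariate and the fold threshold. With the mean of the secreted hepatocyte list as a covariate in the 10 arrays, 24 genes differed, 22 higher and 2 lower; 2742 genes then had an unadjusted p below 0.05, against 6318 in the 10 arrays without it. That covariate did not overlap between the classes, and the median SE rose to 0.277. With a difference of at least 1 log2 required, 745 genes differed, 431 higher and 314 lower. Leaving out 1 array gave 4845 to 5183 genes that differed, 2300 to 2432 higher and 2539 to 2883 lower. The other settings gave 4201 to 5823 genes. With the title prefix as a replicate block 5738 genes differed (2665 higher, 3073 lower), as a random block 5749, and within the 10 arrays 4453 with the block and 4216 without it.

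Of 186 called genes named above, 160 stayed called in every test run but the hepatocyte covariate, with which 163 lost the call in the same direction (Peg10 4.09 and Igf2 -2.41 log2, adjusted p = 0.13 for both, and Pdx1 -2.11, adjusted p = 0.0605) and 16 changed sign: Arg1 (-0.92), Calcr (-2.03), Ccnd1 (0.20), Cd44 (0.92), Cdk4 (0.17), Elovl6 (-0.0251), Isl1 (-0.41), Krt18 (0.16), Nrp1 (0.17), Pyy (0.42), Rgs5 (0.37), Sema3a (-0.11), Sqle (0.0452), Trf (-0.0708), Trib3 (0.0216) and Vegfc (-0.31), all in log2. Within prefixes II and III, with 2 arrays of each class, 55 and 49 of 221 named genes moved by more than the spread between replicates. Differences between so few arrays vary this much by themselves, so these counts cannot show an effect of the prefix. Prefix I holds 1 array of each class. Thbs4 (-0.13) and E2f2 (-0.00872) changed sign in prefix I and C1qa (0.11) in prefix II. The cause of these changes was not tested.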
